A study of Mus musculus with 24 samples.

Results

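The 10 genes described here encode matrix proteins of cartilage: the collagen chains Col2a1, Col9a1, Col9a3, Col11a1 and Col11a2, the proteoglycan Acan, the link protein Hapln1, the matrilins Matn1 and Matn4, and the membrane glycoprotein Cnmd. They were listed by symbol, and for each the probe set (a group of short probes read as 1 value) with the highest mean over all 24 arrays was taken, out of 18193 genes with a named probe set. RNA was taken at embryonic day 12.5 from both jaws of mouse embryos, the mandible and the maxilla, each cut into a proximal and a distal end, which gives 4 parts. The labels give 8 control arrays, 2 for each part, numbered 1 and 2, and 16 knockout arrays, 4 for each part, numbered 1 to 4, from the strain labelled C57B6. Knockout embryos came from matings of Wnt1cre;Alk5fl/+ with Alk5fl/fl mice; Wnt1cre acts in the neural crest, the source of the facial mesenchyme, and Alk5 (Tgfbr1) is a type I receptor for TGF-beta. Controls were littermates of the mutants, so all groups share this cross, and their own alleles at Alk5 and Wnt1cre are not stated in the sources used here. A cleft palate and a defect of the skull vault marked the mutants. The labels do not say which arrays came from the same embryo or whether embryos were pooled, so p-values measure only the spread between these samples, which may be technical. The question addressed is how loss of Alk5 in the neural crest goes with gene expression in the forming jaws.

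Cartilage of the embryonic jaws, including the rod of Meckel's cartilage in the mandible, forms when neural crest mesenchyme condenses and turns on SOX9, which with SOX5 and SOX6 drives the genes of the matrix. Collagen II forms the main fibrils, collagen XI sets how they start and how wide they grow, and collagen IX sits on their surface. Aggrecan, heavy with chondroitin sulfate, is held on hyaluronan by link protein and draws water into the tissue, while matrilins bridge fibrils and proteoglycans, and chondromodulin, the product of Cnmd, keeps blood vessels out.

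RefSeq (GRCm38.p6) gave the start of 8 of the 10 genes in 10 windows; Col2a1 and Col9a3 were not matched. Below are the 250 bases upstream of 4 of them: Acan and Hapln1, whose proteins bind each other, Cnmd, which differed most between the genotypes, and Matn1, which differed most between the arrays of a group. Capitals mark every match, on either strand, to the motifs searched. These were ACAAAG, known for the SOX family, with its variant ACAATG, the Smad element CAGAC, the palindromic Smad element GTCTAGAC, the TATA box TATAAA, the GC box GGGCGG and the promoter element CCAAT. A match on the other strand reads as its reverse complement, such as GTCTG for CAGAC.
Acan, chr7:79052976-79053225, plus strand: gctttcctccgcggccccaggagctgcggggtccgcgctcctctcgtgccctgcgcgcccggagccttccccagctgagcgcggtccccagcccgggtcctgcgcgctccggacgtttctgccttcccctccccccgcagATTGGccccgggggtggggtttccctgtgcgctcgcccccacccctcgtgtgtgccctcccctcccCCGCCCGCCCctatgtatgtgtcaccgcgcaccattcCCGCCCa
Hapln1, chr13:89540386-89540635, plus strand: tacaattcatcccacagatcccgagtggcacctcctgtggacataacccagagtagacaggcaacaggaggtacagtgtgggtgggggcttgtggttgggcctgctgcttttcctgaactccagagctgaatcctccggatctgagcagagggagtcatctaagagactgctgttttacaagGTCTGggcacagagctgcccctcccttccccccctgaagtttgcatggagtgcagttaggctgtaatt
Cnmd, chr14:79662184-79662433, minus strand: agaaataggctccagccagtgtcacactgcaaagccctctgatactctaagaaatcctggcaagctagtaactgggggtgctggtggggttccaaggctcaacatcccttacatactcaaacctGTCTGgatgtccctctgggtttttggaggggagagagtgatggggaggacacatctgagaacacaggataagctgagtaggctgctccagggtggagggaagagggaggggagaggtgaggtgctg
Matn1, chr4:130944135-130944384, plus strand: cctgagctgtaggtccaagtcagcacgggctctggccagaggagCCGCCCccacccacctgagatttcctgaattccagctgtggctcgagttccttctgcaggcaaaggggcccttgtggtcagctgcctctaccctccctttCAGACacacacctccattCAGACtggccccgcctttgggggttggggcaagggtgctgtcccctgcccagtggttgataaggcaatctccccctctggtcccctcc
The Acan window held GGGCGG at 44 to 39, at 40 to 35 (overlapping the first) and at 7 to 2 bases upstream, and CCAAT at 110 to 106. The Hapln1 and Cnmd windows each held a single match, CAGAC at 68 to 64 and at 126 to 122 bases upstream. Positions are counted from the end of each window. The Hapln1 window runs past the first base of the RefSeq gene span (89540529), and its match lies inside that span. The Cnmd window also overlaps its gene span, which ends at 79662194, but its match lies outside. The Matn1 window held CAGAC at 106 to 102 and at 88 to 84, and GGGCGG at 206 to 201. Of the 10 windows of the 8 genes, 6 held CAGAC, each from another gene, against 42.19% of all 32851 windows of this length. GGGCGG was present in 5 of the 10 windows (32.74% of all), CCAAT in 4 (33.85%), and TATAAA in that of Col11a2 alone (12.37%). ACAAAG (16.46%), ACAATG (10.69%) and GTCTAGAC (0.17%) were in none of the 8. These letters describe the windows and say nothing of which proteins bind there.

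The knockout arrays fell into 2 sets, by the signals of control features and not by the genes tested. On the arrays of knockouts numbered 1 and 2, the 3' probes of Gapdh and beta-actin lay 1.13 ± 0.28 (SD, n = 8) above the 5' probes on the log2 scale, against 0.18 ± 0.04 (n = 8) on control arrays and 0.08 ± 0.06 (n = 8) on those of knockouts numbered 3 and 4, a difference that rises as RNA is degraded or shortened. The mean of the hybridisation controls, another group of control features, ran from 10.09 to 11.07 on control arrays. It ran from 11.30 to 12.19 in knockouts 1 and 2 and from 9.03 to 9.51 in knockouts 3 and 4, so both knockout sets stood apart from control. Controls and knockouts share no array set, so set and genotype cannot be told apart. Control arrays were all male, and 4 of the 8 arrays in each knockout set were female by Xist and Kdm5d. The level of Tgfbr1 was 12.31 ± 0.24 (SD, n = 8) in control, 12.34 ± 0.17 (n = 8) in knockouts 1 and 2 and 12.44 ± 0.09 (n = 8) in knockouts 3 and 4; whether its probe set lies in the deleted sequence is not given in the sources used here, so it does not check the labels. All 8 facial mesenchyme markers listed for a check of the tissue, Twist1 and Prrx1 among them, were above 6.07, the level used as a filter on low values (the 40th percentile of all values), on at least 1 array.

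The 2 mandible arrays of control 2 had their ends in the opposite order to control 1 and to knockouts 3 and 4. Over 13837 genes, the distal minus proximal difference of control 1 correlated at 0.72 and 0.57 with those of knockouts 3 and 4, while that of control 2 correlated at -0.77 and -0.64 with the same arrays and at -0.78 with control 1. With knockouts 1 and 2 the correlations were weak, 0.003 and 0.18 for control 1 and -0.05 and -0.26 for control 2. Hand2, a transcription factor of the distal mandible, was 12.72 distal and 10.80 proximal in control 1, but 11.49 and 13.05 on the arrays labelled distal and proximal of control 2. Hoxa2, a gene of the second pharyngeal arch, was 5.10 distal and 9.92 proximal in control 1, and 9.93 and 4.05 in control 2. Hand2, Hoxa2 and Barx1 were chosen after their values were seen. Values that compare the ends of the mandible are therefore given as labelled and with these 2 arrays exchanged, while values over all parts do not depend on it. In knockouts 1 and 2 Hand2 and Barx1 followed control 1 and Hoxa2 did not, with 6.62 distal and 4.24 proximal in knockout 1.

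**Figure D1:**
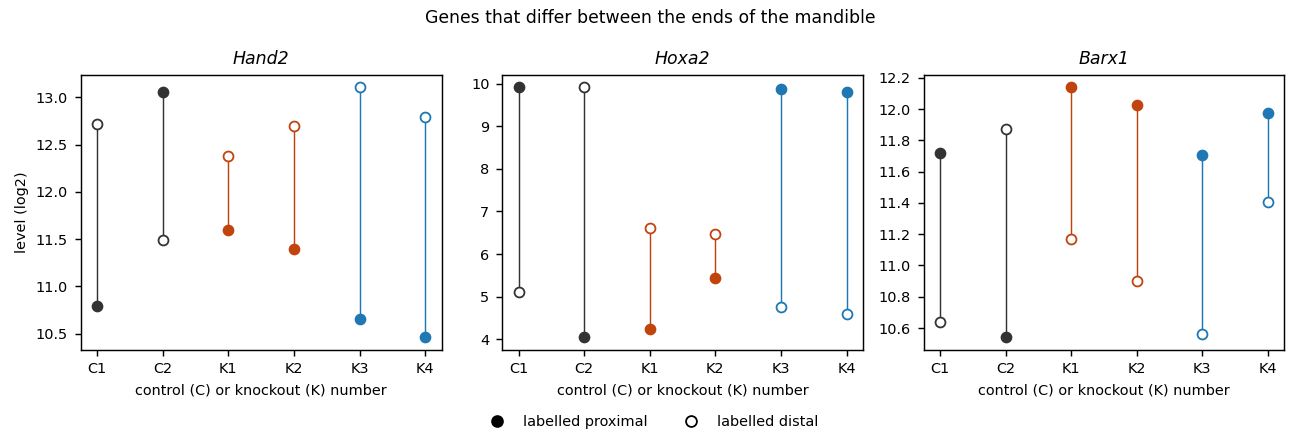
Level (log2) of Hand2, Hoxa2 and Barx1 on each mandible array, with the array labelled proximal filled and the array labelled distal open, for controls 1 and 2 (C) and knockouts 1 to 4 (K). In all 3 genes the order of the ends in control 2 is the reverse of that in control 1 and knockouts 3 and 4.

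All 10 genes were lower in knockout than in control over all 4 parts, with a median difference of -1.89 on the log2 scale, against -0.05 over all 13837 genes tested. Here the 4 parts of each genotype and number were averaged, which leaves 4 knockout and 2 control means. A number need not be 1 embryo: in the proximal maxilla, knockouts 1 and 2 were of the opposite sex to the other parts of the same number, so their means mix embryos. Cnmd differed most, with -3.64 (SE 1.34), followed by Matn4 with -2.32 (SE 0.69), Acan with -2.05 (SE 0.42), Col9a3 with -2.01 (SE 0.50) and Hapln1 with -1.97 (SE 0.41). Col9a1 differed least, with -0.68 (SE 0.26). In linear terms this was a level 12.4-fold lower for Cnmd, 4.15-fold lower for Acan and 1.60-fold lower for Col9a1. None of the 10 passed the threshold at which a gene is called here, a limma adjusted p under 0.05 (theirs were 0.589 to 0.706), and neither did any of the genes tested (0%). Before adjustment 10 of the 10 had p under 0.05 (0.00282 to 0.0418), as did 6.97% of all genes (965). The 10 include Matn1, which passed the filter on low values through the control arrays, where it is high. Fitting the 24 arrays without averaging called 9 of the 10 genes (6.63% of all genes were called lower). That fit takes the 4 parts of a number as independent, which they may not be. Adding the 3' excess as a covariate to the fit of the means called 3, Acan, Cnmd and Col9a3 (3.6% of all genes). In whole tissue, fewer cartilage cells and less RNA of these genes in each cell cannot be told apart.

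Taken set by set, 9 of the 10 genes were lower in knockouts 1 and 2 than in control past the threshold and none was higher. In this comparison 31.7% of all genes were called lower and 20.9% higher. The median was -2.29 against -0.06 over all genes. Matn1 is among the 9, and its call adds no support, since it passed the filter on low values through the control arrays. Knockouts 3 and 4 were lower than control in 10 of 10 genes, with a median of -1.33 against -0.03, but 0 passed the threshold in either direction (1.29% of all genes were called lower and 0.275% higher). In that comparison 7 of the 10 had an unadjusted p under 0.05, as did 26.8% of all genes (3713), and the smallest adjusted p was 0.0866, for Col9a3. Both comparisons share the same control arrays and have 2 means a side. Leaving out control 2 called 9 of the 10 genes in knockouts 3 and 4 (6.87% of all genes were called lower), Matn1 being the other (adjusted p = 0.0505 in limma), and 10 in knockouts 1 and 2 (29.7%); without control 1 the counts were 0 (0.383%) and 9 (28.1%), and the median in knockouts 3 and 4 was -0.83. Fitting the 3 sets together called 3 in knockouts 3 and 4 (3.56%), again Acan, Cnmd and Col9a3. Leaving out knockout 1 or knockout 2 took the count in knockouts 1 and 2 from 9 to 4 each time (18.4% and 24.4% of all genes), and the 4 were Acan, Cnmd, Matn4 and Col9a3. In each fit with a mean left out, that side has a single mean, which is assumed to vary like the 2 means of the other side.

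**Figure D2:**
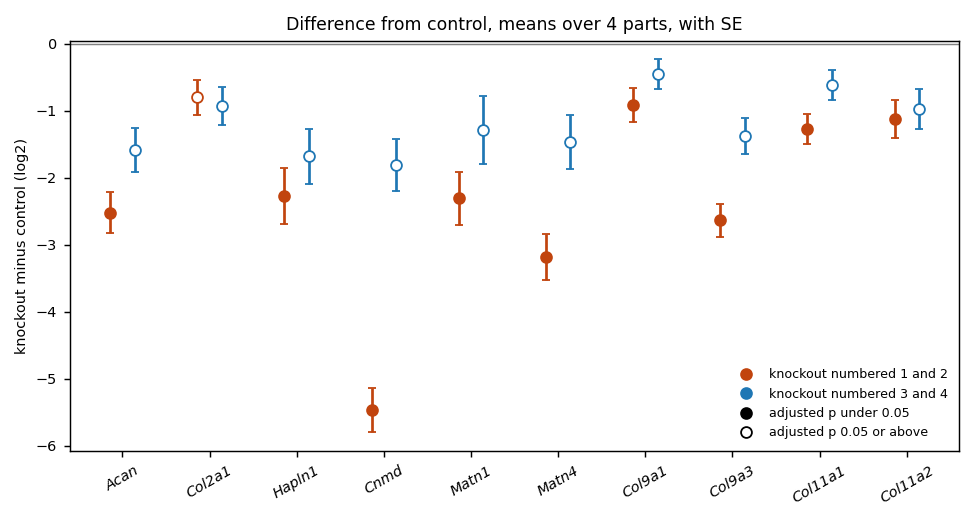
Knockout minus control (log2, means over 4 parts) for each gene, with SE, for knockouts 1 and 2 and for knockouts 3 and 4; filled points have a limma adjusted p under 0.05. All 20 differences lie below 0, from -5.47 for Cnmd to -0.45 for Col9a1.

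Among the collagens, Col2a1, the single chain of collagen II, lay at 11.22 to 13.13 (median 12.20) on the 8 control arrays, at 10.58 to 11.94 (median 11.40) in knockouts 1 and 2, and at 10.60 to 12.24 (median 11.17) in knockouts 3 and 4. The control arrays are mostly the higher ones, but the ranges overlap in both sets. The differences from control were near each other, -0.80 (SE 0.26, adjusted p = 0.0569, limma) and -0.93 (SE 0.28, adjusted p = 0.148). Col9a1, a chain of collagen IX, also overlapped, with 11.45 to 13.12 (median 12.60) in control, 10.004 to 12.66 (median 11.55) in knockouts 1 and 2 and 11.44 to 12.67 (median 11.87) in knockouts 3 and 4. It differed by -0.91 (SE 0.25, adjusted p = 0.0344) and -0.45 (SE 0.22, adjusted p = 0.272). Its partner chain Col9a3 was much further apart.

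Col9a3 lay at 9.85 to 11.78 (median 10.60) on control arrays and at 7.48 to 8.54 (median 8.01) in knockouts 1 and 2, and at 8.65 to 10.33 (median 9.23) in knockouts 3 and 4. Every array of knockouts 1 and 2 was below every control array, while the other knockouts reached into the control range. Its differences were -2.64 (SE 0.25, adjusted p = 0.00237) and -1.38 (SE 0.27, adjusted p = 0.0866). Col11a1, a chain of collagen XI, showed the same separation, with 10.45 to 11.92 (median 11.16) in control, 9.53 to 10.24 (median 9.84) in knockouts 1 and 2 and 10.16 to 11.11 (median 10.44) in knockouts 3 and 4. It differed by -1.28 (SE 0.22, adjusted p = 0.00924) and -0.61 (SE 0.23, adjusted p = 0.191). Col11a2, which encodes the second chain of that collagen, was 6.58 to 8.37 (median 7.86) in control, 6.34 to 6.81 (median 6.53) in knockouts 1 and 2 and 6.12 to 7.26 (median 6.59) in knockouts 3 and 4. The lowest control arrays lie inside the knockout ranges, and the differences were -1.12 (SE 0.29, adjusted p = 0.0281) and -0.97 (SE 0.30, adjusted p = 0.152).

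Acan, the core protein of aggrecan, was 7.20 to 9.48 (median 8.57) on the control arrays, 5.44 to 6.53 (median 5.90) in knockouts 1 and 2 and 6.38 to 7.63 (median 6.65) in knockouts 3 and 4. The first knockout set was wholly below control, and 5 of its 8 arrays were at or below the filter level of 6.07. Acan differed from control by -2.52 (SE 0.30, adjusted p = 0.00364) and -1.59 (SE 0.32, adjusted p = 0.0917). Hapln1, the link protein that locks aggrecan to hyaluronan, ran from 8.39 to 10.82 (median 9.76) in control, from 6.52 to 9.09 (median 7.04) in knockouts 1 and 2 and from 6.82 to 9.14 (median 7.86) in knockouts 3 and 4. Both knockout ranges reach into the control range, through 1 array of the first set and 2 of the second. The differences were -2.27 (SE 0.42, adjusted p = 0.0110) and -1.68 (SE 0.41, adjusted p = 0.111).

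Of the matrilins, Matn1, the matrilin typical of cartilage, was 5.09 to 7.98 (median 7.49) in control, 4.39 to 4.96 (median 4.66) in knockouts 1 and 2 and 4.70 to 8.27 (median 5.45) in knockouts 3 and 4. It is the faintest measurement of the 10 for the filter: it was above 6.07 on 7 arrays only, 6 control arrays and 1 of knockout 4, so it passed through the group in which it is high. Its differences were -2.31 (SE 0.40, adjusted p = 0.00902) and -1.29 (SE 0.51, adjusted p = 0.208). Matn4, a matrilin also found in other connective tissue, was 8.93 to 10.80 (median 9.96) in control, 6.34 to 7.17 (median 6.66) in knockouts 1 and 2 and 7.24 to 10.01 (median 8.34) in knockouts 3 and 4. Knockouts 1 and 2 lay apart from control with a wide gap, and knockouts 3 and 4 spanned the space between. Matn4 differed by -3.18 (SE 0.35, adjusted p = 0.00305) and -1.46 (SE 0.40, adjusted p = 0.128).

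Cnmd, the angiogenesis inhibitor chondromodulin, had the widest separation. Its level was 9.38 to 11.58 (median 10.60) in control, 7.59 to 10.53 (median 8.60) in knockouts 3 and 4 and 4.77 to 5.36 (median 5.00) in knockouts 1 and 2. All 8 arrays of knockouts 1 and 2 were below the filter level, while knockouts 3 and 4 overlapped the control range. The difference from control was -5.47 (SE 0.33, adjusted p = 0.00155) in the first set, a 44.4-fold lower signal, and -1.80 (SE 0.39, adjusted p = 0.0951) in the second, a 3.49-fold lower signal.

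**Figure D3:**
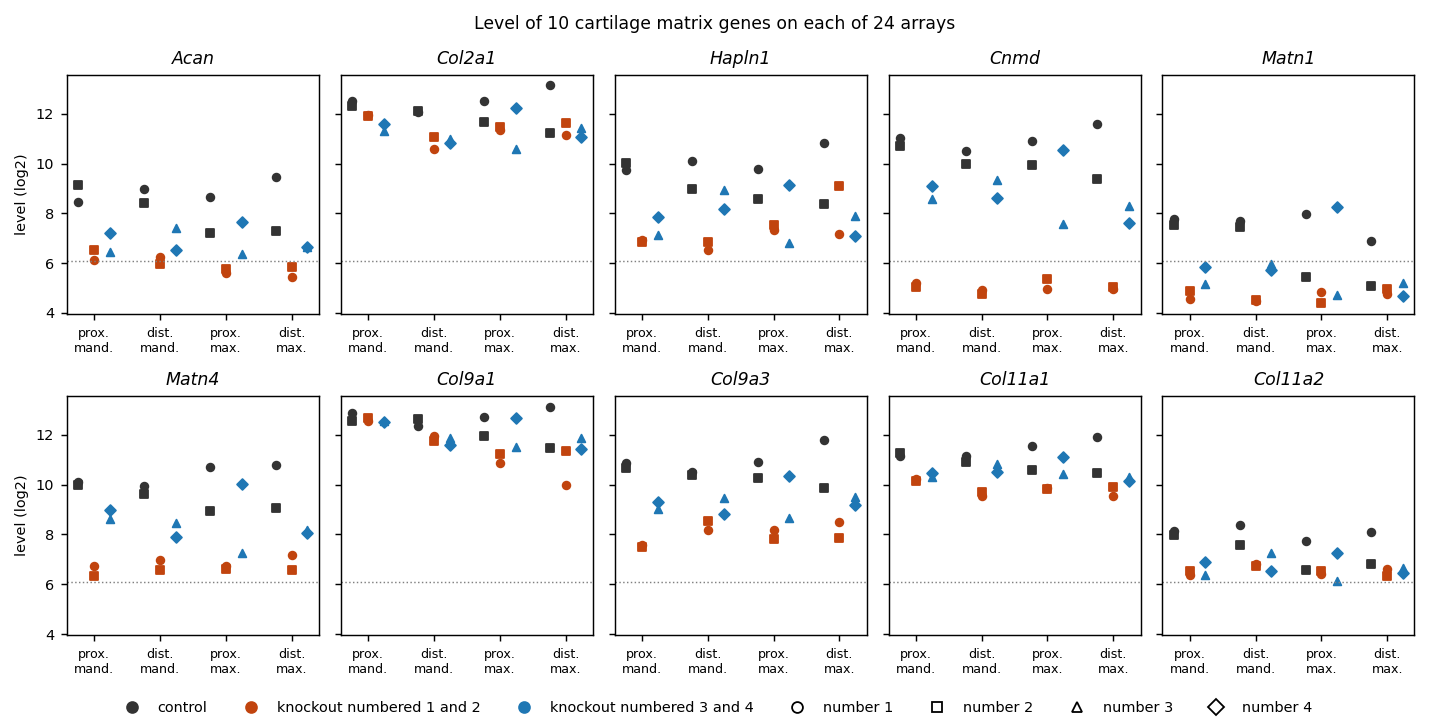
Level (log2) of each of the 10 genes on each of the 24 arrays, by part, with colour for the array set, symbol for the number and a dotted line at the filter level of 6.07. Cnmd lies at 4.77 to 5.36 on the arrays of knockouts 1 and 2, and Matn1 lies above the line on 7 arrays.

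The ranges separate fully for 6 of the 10 genes in knockouts 1 and 2 (17.9% of all genes did so). All 8 arrays were below all 8 control arrays for Acan, Cnmd, Matn1, Matn4, Col9a3 and Col11a1. Matn1 counts among the 6 but passed the filter on low values through the control arrays. Within every part, both arrays lay below both controls for those 6 and Col11a2, 7 in all (23.5% of all genes). In knockouts 3 and 4 no gene of the 10 met either condition (4.7% and 7.51% of all genes did). For the second condition this rests largely on 1 array, the proximal maxilla array of knockout 4. Without it 7 genes met that condition (9.15% of all genes), all but Col2a1, Matn1 and Col9a1. The first condition was then met by Cnmd and Col9a3 only (5.55%), so most of the 10 still overlapped control. With the control 2 mandible arrays exchanged, the counts within every part were again 7 (23.8% of all genes) and 0 (8.48%). The 2 knockout sets also differed from each other: 7 of the 10 were lower in knockouts 1 and 2 past the threshold (36.2% of all genes were). The differences were those of Cnmd at -3.67 (SE 0.17), Matn4 at -1.72 (SE 0.22), Col9a3 at -1.26 (SE 0.11), Matn1 at -1.02 (SE 0.27), Acan at -0.93 (SE 0.12), Col11a1 at -0.66 (SE 0.08) and Col9a1 at -0.46 (SE 0.14), with adjusted p from 0.000134 to 0.0308 in limma. The call of Matn1 adds no support, since it passed the filter on low values through the control arrays. It lay at or below that level on 8 of 8 arrays of knockouts 1 and 2 and on 7 of 8 of knockouts 3 and 4. Hapln1 (-0.60, SE 0.22), Col11a2 (-0.15, SE 0.08) and Col2a1 (0.13, SE 0.14) did not pass. In the fit of all 3 sets together 5 of the 10 were called (34.6% of all genes), with Matn1 (adjusted p = 0.0891) and Col9a1 (adjusted p = 0.126) no longer past the threshold in limma. Without the proximal maxilla array of knockout 4 there were 6 (35.8%), Col9a1 missing the threshold (adjusted p = 0.0688). Leaving out knockouts 1, 2, 3 and 4 in turn called 5, 7, 7 and 6 genes (32.5%, 36.3%, 29.7% and 28.5% of all genes), each time without Matn1, Col9a1 or both, while Hapln1 was called without knockout 2 and without knockout 3. The set with the larger differences is also the set with the larger 3' excess, and erythroid markers moved with it (6 of 6 tested genes higher than control past the threshold, median 1.78, and 0 of 6 higher in knockouts 3 and 4, median -0.37). The range of the mean erythroid level over 7 markers was 9.47 to 9.82 in control, 10.68 to 11.51 in knockouts 1 and 2 and 9.01 to 9.44 in knockouts 3 and 4, and all 7 were above the filter level on some array. Endothelial markers moved with the same set, with 8 of 10 tested genes lower and 1 higher than control past the threshold (median -0.64), against 1 lower and 0 higher in knockouts 3 and 4 (median -0.09). The mean endothelial level over 10 markers was 9.23 to 9.53 in control, 8.18 to 9.02 in knockouts 1 and 2, apart from control, and 9.15 to 9.74 in knockouts 3 and 4, and all 10 were above the filter level on some array. The part of RNA quality, blood cells, vessels and embryo stage in these differences was not tested. The labels give embryonic day 12.5 for every array.

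The size of the difference also moved with the probe set. Hapln1 has 4 probe sets, and the other 3, all fainter, differed by -3.00 to -3.25 in knockouts 1 and 2 and by -1.01 to -1.55 in knockouts 3 and 4. The second probe set of Col11a1 differed by -2.04 and -1.11, and the second of Col9a1 by -1.62 and -0.36. The second probe set of Col9a3 differed by -3.22 and -1.38, and the third lay near background at a mean of 3.51, with -0.30 and -0.18. Each of these probe sets was thus lower in both knockout sets, and those other than the third of Col9a3 correlated at 0.90 to 0.97 with the brightest over the 24 arrays.

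In each of the 4 parts taken alone, all 10 genes were lower in knockout, with 4 arrays against 2. The median difference was -2.30 in the proximal mandible, -1.83 in the distal mandible, -1.31 in the proximal maxilla and -1.50 in the distal maxilla. With the 2 control 2 mandible arrays exchanged, the first 2 medians were -2.02 and -2.14, and all 10 genes stayed lower. Limma called 0 of the 10 in the proximal mandible (0% of all genes), 0 in the distal mandible (0.0145%), 0 in the proximal maxilla (0.00723%) and 0 in the distal maxilla (0.00723%), with 8, 7, 3 and 8 of the 10 at an unadjusted p under 0.05, beside 1058, 1364, 879 and 676 of all genes. With knockouts 1 and 2 alone the counts were 7, 8, 4 and 6 (18.7%, 24.9%, 10.9% and 15.4% of all genes were called lower), and with knockouts 3 and 4 alone 0 in each part (1.22%, 1.55%, 1.58% and 1.36%). Without control 1 the medians in the maxilla shrank to -0.61 and -0.52, and without control 2 they were -2.11 and -2.51. Without control 1 a few differences changed sign: Col9a1 in the proximal mandible (0.01), Matn1 (0.10) and Col11a2 (0.00) in the proximal maxilla and Col2a1 in the distal maxilla (0.10). Among the 12 groups of set and part, the lowest mean was in knockouts 1 and 2 for 10 of the 10 genes. The highest was a control group in each gene, but which one depends on the end labels: as labelled it was the proximal mandible in 9 of the 10 and the distal maxilla in Col9a3. With the control 2 arrays exchanged it was the distal mandible in 6 genes (Acan, Hapln1, Cnmd, Matn4, Col11a1 and Col11a2), the proximal mandible in 3 (Col2a1, Matn1 and Col9a1) and again the distal maxilla in Col9a3. As labelled, the top 2 groups were closer than the spread of their arrays in each gene that peaked in the proximal mandible; in Cnmd they were 10.87 ± 0.21 and 10.48 ± 1.56 (SD, n = 2). With the exchange Acan was 9.06 ± 0.10 in the distal and 8.44 ± 0.04 in the proximal mandible (SD, n = 2).

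In the maxilla, knockouts 3 and 4 were less clearly apart from control. In the mandible, the 2 knockouts 3 and 4 were both below both controls for 10 of the 10 genes at either end, as labelled (28.4% of all genes at the proximal and 33.8% at the distal end), and also with the control 2 arrays exchanged (31.8% and 36.7%). In the proximal maxilla this held for 0 of the 10 (20.1%), and in the distal maxilla for 7 (27.7%), not for Col2a1, Matn1 and Col9a1. Knockouts 1 and 2 were both below both controls for 9, 10, 10 and 8 genes in the mandible (proximal, then distal end) and the maxilla (in the same order; 41.3%, 43.5%, 36.6% and 33.1% of all genes); with the exchange the mandible counts were again 9 and 10 (45.3% and 45.2%).

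Some pairs of maxilla arrays were far apart. Control 2 was below control 1 in all 10 genes in the proximal maxilla (median -1.05) and in the distal maxilla (median -1.86), against medians of -0.18 and -0.28 in the arrays labelled proximal and distal mandible. For example, Acan was 9.48 in control 1 and 7.31 in control 2 in the distal maxilla, and Matn1 7.98 and 5.46 in the proximal maxilla. Knockout 4 was above knockout 3 in all 10 genes in the proximal maxilla, by a median of 1.66 and by up to 3.53 for Matn1, which read 8.27 and 4.74. The other maxilla pairs were closer, with medians of -0.37 for knockout 4 minus 3 in the distal maxilla and of 0.10 and 0.28 for knockout 2 minus 1 at the proximal and distal ends; in the mandible knockout 4 minus 3 had 0.45 and -0.61. That single array of knockout 4 reached a mean of 9.92 over the 10 genes, higher than the 9.11 of control 2 and below the 10.34 of control 1 in the same part. Its genes were near the control mean, 3 of 10 below it (46.1% of all genes), with a median difference of 0.10. On each of the other 15 knockout arrays 10 of 10 were below the control mean of the part (51.5% to 58.3% of all genes). Without this array the median difference was -1.98 in place of -1.31 in the proximal maxilla, and -1.59 in place of -1.33 for knockouts 3 and 4 over all parts (where the mean of knockout 4 then covers 3 parts), with 0 of the 10 called in both (0.0217% and 2.01% of all genes were called lower).

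**Figure D4:**
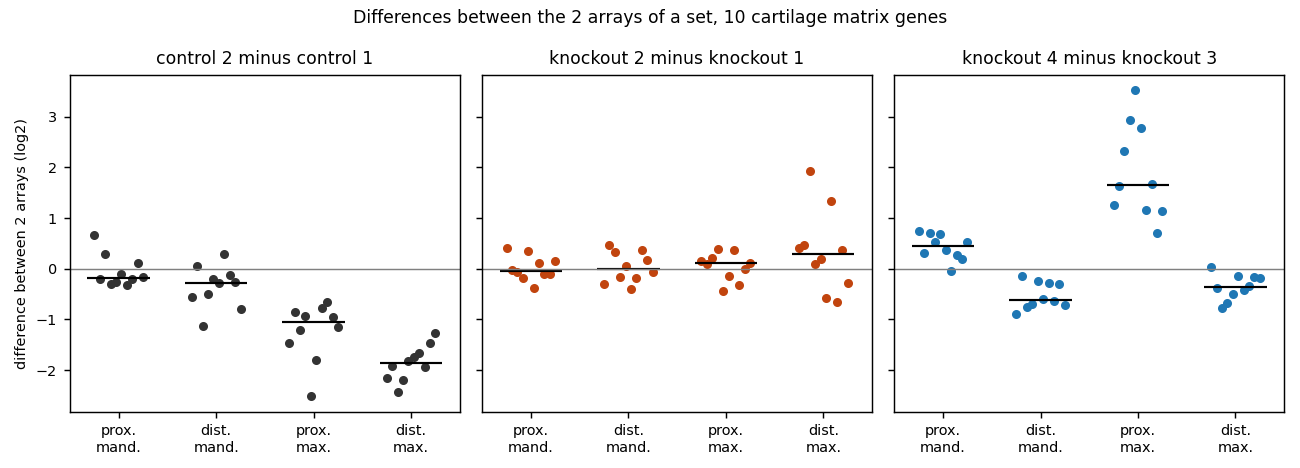
Difference (log2) between the 2 arrays of the same part in control, knockouts 1 and 2 and knockouts 3 and 4; each point is 1 of the 10 genes and the bar is their median. Control 2 lies below control 1 in the maxilla, with medians of -1.05 and -1.86, and knockout 4 lies above knockout 3 in the proximal maxilla, with a median of 1.66.

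Markers of other tissues also differed between the maxilla arrays of a group, not always with the cartilage genes. In the proximal maxilla the mean level of 12 skeletal muscle markers was 9.93 in control 1 and 5.80 in control 2, and 5.76 in knockout 3 and 9.28 in knockout 4, with all 11 tested markers differing in the direction of the cartilage genes in both pairs. In the distal maxilla it was 8.04 in control 1 and 5.99 in control 2. The neuron markers read 11.85 and 8.28 in controls 1 and 2 and 7.58 and 10.50 in knockouts 3 and 4 in the proximal maxilla, with 10 of 10 in the same direction. Macrophage markers went the same way in both pairs (10 of 10, medians -0.72 for control 2 minus 1 and 0.50 for knockout 4 minus 3). The facial mesenchyme markers went the other way (7 of 8 higher, median 0.90, and 7 of 8 lower, -0.42), and 11 of 12 epithelial markers were higher in control 2 than in control 1 (1.40). Other pairs of arrays differed in the markers without the cartilage genes. For knockout 2 minus 1 in the proximal maxilla, 11 of 11 muscle (median 1.57) and 10 of 10 neuron markers (1.79) were higher. The cartilage genes had a median of 0.10, with 6 higher and 4 lower. In that set Cnmd and Matn1 lay at or below the filter level on all 8 arrays and Acan on 5, which limits how far they can move. For knockout 4 minus 3 in the distal maxilla, 10 of 11 muscle markers were higher (1.18) while 9 of the 10 cartilage genes were lower. Over whole groups the muscle mean ran from 5.80 to 10.35 in control, from 5.66 to 9.01 in knockouts 1 and 2 and from 5.55 to 10.01 in knockouts 3 and 4, and 1 of the 12 markers was never above the filter level. The neuron mean of 10 markers ran from 7.28 to 11.85, from 6.41 to 9.90 and from 7.23 to 10.50, and each marker was above the filter level on some array. In the mandible, muscle markers ran from 8.41 to 10.35 on control arrays and from 8.45 to 10.01 on knockout arrays. There all 10 genes were below the control mean of their part, as labelled, on each of the 8 knockout arrays (51.5% to 57.3% of all genes were). The part of the tissue taken with each dissection in the levels of the cartilage genes was not tested in either jaw.

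**Figure D5:**
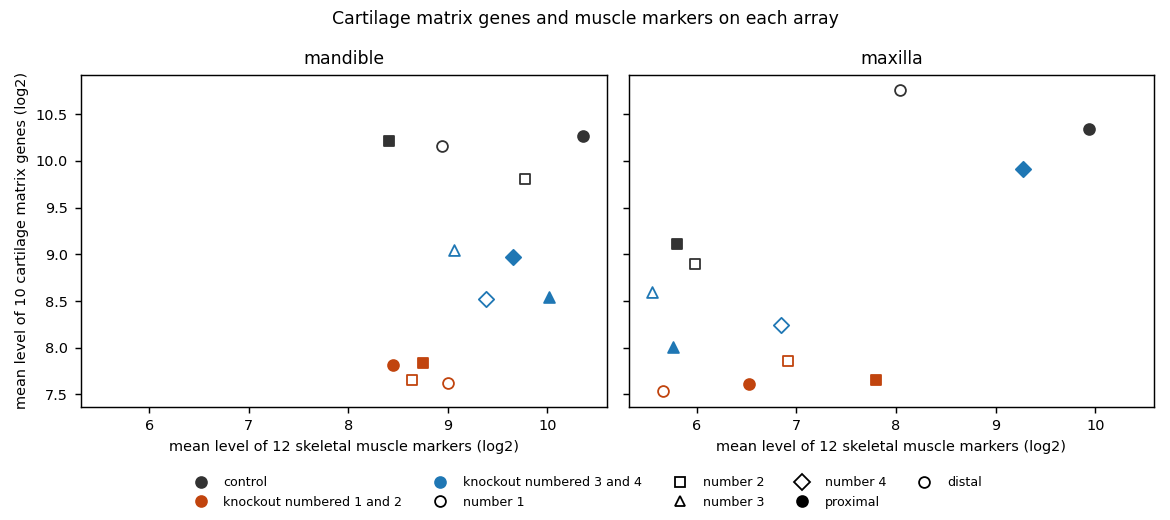
Mean level (log2) of the 10 cartilage matrix genes against that of 12 skeletal muscle markers on each array, by jaw, with colour for the array set, symbol for the number and filled points for the proximal end. In the maxilla, control 1 and the proximal array of knockout 4 are high on both axes; in the mandible the control arrays lie at 9.81 to 10.27 and the knockout arrays at 7.62 to 9.05.

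Between jaws and ends none of the 10 genes passed the threshold. These comparisons used 1 fit of the 12 groups of set and part. Mandible minus maxilla had a median of 0.21 in control, with no settled direction: it was 0.86 without control 1 and -0.42 without control 2, which turned the sign of 6 of the 10 genes. With both controls 0 of 10 were called by limma, against 0.687% of all genes, and 1 of 10 and 1577 of all genes had an unadjusted p under 0.05. In knockout the median was 0.04 (0 of 10, against 7.71%; 1 of 10 and 3093), and 0.31 without the proximal maxilla array of knockout 4. In control the largest differences were Matn1 with 1.25 (SE 0.64; 2.22 without control 1 and 0.28 without control 2) and Col11a2 with 0.72 (SE 0.32). In knockout the largest difference was Col9a1 with 0.82 (SE 0.25, adjusted p = 0.0592 in limma), and 0.97 without the proximal maxilla array of knockout 4. It came mostly from knockouts 1 and 2. Their Col9a1 means were 12.61 and 11.85 in the mandible (proximal, then distal end) and 11.04 and 10.67 in the maxilla. In knockouts 3 and 4 the jaws were closer, with 12.53 and 11.74 in the mandible and 12.09 and 11.65 in the maxilla. The knockout difference did not differ detectably between the jaws, with a median interaction of -0.16 (0 of 10, and 0% of all genes; 0 of 10 and 570 at an unadjusted p under 0.05) and the largest value in Matn1 (-1.34, SE 0.78); the median was -0.84 without control 1 and 0.54 without control 2.

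Distal minus proximal in the mandible had a median of -0.24 in control as labelled (0 of 10, and 0% of all genes) and 0.09 with the control 2 arrays exchanged, where 0 of 10 were called as well, beside 56 of all genes. In the knockout mandible the median was -0.05 (0 of 10, against 1.09%), with Col2a1 at -0.82 (SE 0.37) and Col9a1 at -0.77 (SE 0.35) the furthest from 0. In the maxilla the labelled ends had no common order over all genes tested. There the distal minus proximal difference of control 2 correlated at -0.35 with that of control 1. Control 1 correlated at 0.07, 0.43, 0.20 and 0.41 with knockouts 1 to 4, and control 2 at -0.25, -0.21, -0.34 and 0.11. Between knockout numbers the correlations ran from -0.08 to 0.30. The maxilla end values below thus rest on labels that the arrays do not bear out as a whole. The median of the 10 genes in the maxilla was 0.11 in control (0 of 10, and 0%) and -0.17 in knockout (0 of 10, against 0.065%). Without the proximal maxilla array of knockout 4 the latter was 0.22, with the sign of 6 of the 10 genes turned. The knockout difference by end had a median interaction of 0.11 in the mandible as labelled (0 of 10, against 0.0145%), -0.28 with the arrays exchanged, and -0.35 in the maxilla (0 of 10, and 0%), or 0.12 without the proximal maxilla array of knockout 4, with 5 signs turned. With each number left out in turn, the medians by end ran on both sides of 0 in the knockout mandible (-0.31 to 0.27), in the maxilla of control (-0.27 to 0.52) and knockout (-0.63 to 0.31), and for the interactions in the mandible (-0.09 to 0.44) and maxilla (-0.85 to 0.25); in the control mandible as labelled they were -0.36 and -0.13. At an unadjusted p under 0.05 there were 0, 2, 0, 0, 0 and 0 of the 10 in these 6 comparisons, in the order given, beside 36, 1486, 401, 842, 453 and 365 of all genes.

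Across the arrays the 10 genes moved together. The 45 pairs had a median Pearson correlation of 0.83 over the 24 arrays (0.48 to 0.97), which share the difference between the sets, and 0.66 (0.18 to 0.86) once the mean of each set was subtracted. Col9a1 was the least like the rest, with a median of 0.44 after subtraction, and Cnmd the most, with 0.75. Within the 8 arrays of a set the median was 0.86 in control and 0.81 in knockouts 3 and 4, where the maxilla arrays named above spread the values. It was -0.16 in knockouts 1 and 2, where Cnmd and Matn1 lay at or below the filter level on all 8 arrays and Acan on 5. These are descriptions over arrays that share embryonic tissue and processing.

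The genes outside the list with the most similar pattern, by correlation with the mean of the 10 scaled genes over 24 arrays, were Cytl1 (0.95), Rflna (0.95), Fzd9 (0.94), Scin (0.93), Scx (0.92), Osbpl10 (0.90), Kcnk6 (0.90) and Klf2 (0.90). With set means subtracted they were Cytl1 (0.88), Scin (0.85), Fzd9 (0.85), Rflna (0.81), Susd5 (0.80), Chad (0.80), Wwp2 (0.79) and Cthrc1 (0.77). Cytl1, Scin, Fzd9 and Rflna stand in both. The SOX factors of cartilage were further down, with 0.62 for Sox9, 0.82 for Sox6 and 0.56 for Sox5 as measured, and 0.27, 0.09 and 0.15 after subtraction. Sox9, on which the chondrocyte fate depends, was lower in both knockout sets, with differences of -1.05 (SE 0.09, adjusted p = 0.00186) and -1.15 (SE 0.08, adjusted p = 0.0345, limma). Sox6 fell by 1.58 (SE 0.07, adjusted p = 0.0015) and by 0.82 (SE 0.08, adjusted p = 0.0462), and Sox5 differed by -1.06 (SE 0.09, adjusted p = 0.00201) and -0.39 (SE 0.08, adjusted p = 0.0879).

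Other matrix genes of cartilage stood lower too. Of 22 listed, 17 were tested, and all 17 were lower in knockouts 1 and 2 (11 called, median -1.01), 16 in knockouts 3 and 4 (0 called, median -0.44), and all 17 over all knockouts (0 called, median -0.98). The smallest p-values in knockouts 1 and 2 were those of Matn2 (-2.14, SE 0.08), Otor (-2.93, SE 0.15) and Mia (-3.75, SE 0.29). Col9a2, the third chain of collagen IX, differed by -1.90 (SE 0.34, called) and -1.33 (SE 0.35, adjusted p = 0.122); it was named for that role after its values were seen. Of 16 tested cartilage regulators, 10 were called lower and 1, Pth1r, higher (0.51, SE 0.15) in knockouts 1 and 2, and in knockouts 3 and 4 the 2 called, both lower, were Sox9 and Sox6. Beside Sox6 and Sox9, Arid5b, a partner of SOX9, had the smallest p in the first set (-1.31, SE 0.11).

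Of the 16 tested genes that make sulfated glycosaminoglycans, the side chains of aggrecan, 9 were called lower and 0 higher in knockouts 1 and 2 (median -0.29), led by Papss1 (-1.53, SE 0.08), Csgalnact1 (-1.93, SE 0.12) and Chsy1 (-0.65, SE 0.07). In knockouts 3 and 4 the 2 called, both lower, were the sulfotransferase Chst12 (-0.62, SE 0.05) and the sulfate transporter Slc26a2 (-0.64, SE 0.06), with a median of -0.19. Among 22 tested genes that modify, carry or crosslink collagen, 12 were called lower and 3 (P3h2, Pcolce and Bmp1) higher in knockouts 1 and 2 (median -0.34), and 1 lower in knockouts 3 and 4, the prolyl hydroxylase subunit P4ha3 (-1.90, SE 0.09, and -0.62, SE 0.05). P3h3 (-1.13, SE 0.08) and P3h1 (-1.01, SE 0.07) followed in the first set. Of 11 tested hyaluronan genes, 3 were called lower in knockouts 1 and 2, no larger a share than the 31.7% of all genes. They were the receptor Cd44 (-2.54, SE 0.13), the synthase Has2 (-1.67, SE 0.15) and the proteoglycan Vcan (-0.43, SE 0.09). In knockouts 3 and 4, 0 were called lower (median -0.07). The shares of all genes called in these comparisons, given above, apply to these counts as well.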

How the data were processed

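Expression was measured on 24 Affymetrix Mouse430_2 arrays from 5 µg of total RNA each, biotin labelled, per the labels. The deposited values are log2 levels; the authors used RMA to make them, per the submitters' processing notes. Its version, and whether all arrays shared a run, are not given in the sources used here. Precision is limited by how few arrays there are.

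Of 45101 probe sets, 64 control features were set aside, 34945 carry 1 symbol, 932 several and 9160 none, and 34741 matched RefSeq (GRCm38.p6) by identifier. The brightest probe set stood for a gene, and 13837 of 18193 genes lay above the 40th percentile (6.07) on at least 2 arrays, all 10 cartilage genes among them. Tests used lmFit and eBayes (no trend) of limma 3.58.1 with R 4.3.3. They were 2-sided, adjusted by Benjamini-Hochberg over all genes tested, with a threshold of 0.05: means over the 4 parts for all parts and for each array set, 8 group means for the parts, and 12 for jaws and ends. Lists are described by counts and medians, with no test; up to 3 called genes of each were named by smallest p. Genes of like pattern were the 8 with the highest correlation. The scripts were checked on simulated data. No arrays were duplicates (highest correlation 0.995). Same-numbered samples were checked for pairing: over 18 comparisons the correlation of their differences ran from -0.68 to 0.58, with 10 over 0.1. The numbers were therefore not used as pairs. All values below 0 involved the arrays labelled distal mandible in control or the proximal maxilla of knockouts 1 and 2. The other values were above 0, so parts of the same number may not be independent. Alternatives covered scaling, filter, variance prior, probe set, replicates, array sets, RNA quality and sex; exchanging the ends of the control 2 mandible, leaving out 1 array and the jaw and end comparisons within a set were chosen after seeing the data. The genes and lists were chosen with earlier results of these data known.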

Additional observations from a re-analysis of the deposited data

Results flagged for a closer look

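Matn1 on the proximal maxilla array of knockout 4 read 8.27, far above the other 3 knockout arrays of that part (4.39 to 4.83). It was the single outlying array in 40 groups of 4 tested, 1 for each gene and knockout part, and chance alone flags about 1 in 20 such groups. Each group of 4 holds both knockout sets, so an array is hard to flag in a gene that differs between the sets. Cnmd read 10.53 on the same array, against 7.59 in knockout 3 and 4.96 and 5.36 in knockouts 1 and 2, and was not flagged. The skeletal muscle and neuron markers were high on this array as well, and their part in the value of Matn1 was not tested.

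The 2 knockout sets differed in 7 of the 10 genes, by a direct limma test of knockouts 1 and 2 against knockouts 3 and 4. All 7 were lower in the first set, as were 36.2% of all genes past the same threshold. The call of Matn1 adds no support: it lay at or below the filter level on 8 of 8 arrays of the first set and 7 of 8 of the second. The values, first set minus second, were -0.93 for Acan, -3.67 for Cnmd, -1.02 for Matn1, -1.72 for Matn4, -0.46 for Col9a1, -1.26 for Col9a3 and -0.66 for Col11a1. The first set also has the larger 3' excess (1.13 against 0.08 in the mean), whose part was not tested. In the fit of all 3 sets together 5 of the 7 were called, without Matn1 (adjusted p = 0.0891) and Col9a1 (adjusted p = 0.126), and leaving out each knockout number in turn took away the call of Matn1, Col9a1 or both.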

How the results depend on the processing

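For knockout against control over all parts, with 0 of the 10 genes called, fitting 24 arrays without averaging called 9 and the RNA quality covariate 3, while centring, no filter, a variance trend, the mean of all probe sets, sex, array set as a random block (consensus correlation 0.89) and each replicate left out gave 0. The shares of all genes called lower were 6.63% without averaging, a fit that takes the parts of a number as independent, and 3.6% with the covariate. In knockouts 3 and 4 (0 called), fitting 3 sets together called 3 (3.56% of all genes were called lower). In the mandible (proximal, then distal end) and the maxilla (same order), with 0 called, knockouts 1 and 2 alone called 7, 8, 4 and 6. Of all genes 18.7%, 24.9%, 10.9% and 15.4% were called lower there. For mandible against maxilla in knockout, leaving out the proximal maxilla array of knockout 4 called 1. With each replicate left out in turn, the counts ran from 4 to 10 in knockouts 1 and 2 against control, from 0 to 9 in knockouts 3 and 4 against control and from 5 to 7 between the sets; they stayed at 0 in the other comparisons. The cause of these changes was not tested. No called difference changed its sign under any alternative run, and centring the arrays changed the sign of no knockout difference. The replicate block called 0 of the 10 genes in each comparison of jaws, ends and interactions, as without it. The signal of Matn1, and of Cnmd and Acan in knockouts 1 and 2, lies near or below the filter level, which limits how large a difference can be measured.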
